A study of Ictidomys tridecemlineatus with 10 samples.

Results

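Antioxidant and NRF2-linked genes were examined in thirteen-lined ground squirrels (Ictidomys tridecemlineatus), in the subfornical organ, in interbout arousal (IBA) and in the Active state. The members are genes whose symbol stands in a list of 36 names and whose mean over the 10 libraries was at least 1 normalised CPM (reads scaled for library size). Of the 36 names, 35 had a row and all 35 passed that level, out of 15445 genes tested. Sod3, the extracellular superoxide dismutase, was not analysed here. Libraries of polyadenylated RNA came from the hand-dissected organ, a midline brain structure that senses blood osmolality and angiotensin. There were 5 IBA libraries, from animals in the hibernation season that had rewarmed between torpor bouts, and 5 Active libraries, from animals that were not hibernating. The series' design text calls them biological replicates, and neither the age and sex of the animals nor a pooling of tissue was given in the sources used here.

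Cells make superoxide as a by-product of respiration. Superoxide dismutases turn it into hydrogen peroxide, which catalase, glutathione peroxidases and peroxiredoxins remove. Glutathione peroxidases and peroxiredoxins take the electrons for that removal from glutathione and thioredoxin, which reductases recharge with NADPH. The transcription factor NRF2 (Nfe2l2) drives many of these genes under oxidative stress, and KEAP1 holds it at a low level otherwise. Rewarming from torpor brings a surge of oxygen use, which is why antioxidant defence is much studied in hibernators.

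Recovered depth was 24195342 to 35382203 reads per IBA library and 20993093 to 30713168 reads per Active library. No member had fewer than 302 reads in any library (Glrx2). Over all genes, libraries of a state differed by more than sampling noise. That was not checked for single members, and for those with few reads counting error may be part of the spread between libraries. Genes known for this organ were present: Agtr1, the angiotensin II receptor, was at 34.0 to 69.5 CPM in IBA and 13.6 to 60.7 CPM in Active libraries, and Etv1 was at 116 to 130 CPM in IBA and 87.8 to 158 CPM in Active libraries. Choroid plexus tissue was most abundant in Active replicate 4, where Ttr reached 10024 CPM. Astrocyte marker Gfap ranged from 6022 to 9451 CPM in IBA and from 3548 to 14255 CPM in Active libraries. Because these are bulk samples, fewer cells of a type and less RNA per cell cannot be told apart in any result here.

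Gss, glutathione synthetase, which joins glycine to the dipeptide precursor in the last step of glutathione synthesis, was the member that passed the test across all genes. It was at 53.1, 52.6, 39.9, 41.5 and 42.3 CPM in IBA libraries 1 to 5, against 29.2, 31.5, 28.0, 30.8 and 30.0 CPM in Active libraries 1 to 5. Every IBA library lay above every Active library, and the Active values were close together. The means were 45.9 ± 6.44 CPM in IBA and 29.9 ± 1.37 CPM in Active (SD, n = 5 each). Gss rose by 0.60 on the log2 scale (SE 0.11), a 1.52-fold difference, with an adjusted p of 0.0387 in limma. All log2 differences are IBA minus Active on log2(CPM + 0.5). The call lay near the threshold. Without IBA replicate 5 it held (adjusted p = 0.0373 in limma), and without any one of the other 9 libraries it was lost (adjusted p = 0.0541 to 0.112 in limma), while the log2 difference stayed between 0.55 and 0.65. Over all 22 alternatives the adjusted p ran from 0.000108 to 0.169 across limma, edgeR and DESeq2, and was under 0.05 in 10 of them.

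Of the 35 members, 1 was called higher in IBA at an adjusted p under 0.05, where 0.22% of all genes tested were, and 0 were called lower, where 0.181% of all genes were (limma). edgeR on the recovered reads likewise called Gss alone, where it called 0.162% of all genes higher and 0.207% lower. DESeq2 called 3 members higher, Gss, Prdx1 and Txn, and 1 lower, Gsr. These are 8.57% and 2.86% of the members, beside 3.88% of all genes called higher and 6.06% called lower in DESeq2. At an unadjusted p under 0.05 in limma, 10 members were higher and 2 lower, with 7 and 3 in edgeR and 8 and 3 in DESeq2. Over all genes these shares were 10.4% higher and 13.6% lower in edgeR, and 11.6% higher and 14.3% lower in DESeq2. The 10 are 28.6% of the members, beside 12.7% of all genes tested, and the 2 are 5.71% of the members, beside 11.1% of all genes. The higher ones were Prdx1, Txn, Gss, Glrx, Gpx4, Mgst3, Prdx3, Prdx4, Mgst1 and Gpx8, and the lower ones were Gsr and Slc7a11. Single libraries set these counts: the higher count was 5 without IBA replicate 1, without IBA replicate 2 or without Active replicate 5, and the lower count was 1 without IBA replicate 1, 2 or 3 or without Active replicate 1 or 5, and 0 without both Active replicates 4 and 5. States did not overlap in 2 members that were higher, Gss and Txn, and in 0 that were lower. Among all genes tested, 3.59% did not overlap and were higher and 2.8% did not overlap and were lower. The median log2 difference was 0.09 over the members, with 20 positive and 15 negative, and 0.03 over all genes tested.

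**Figure D1:**
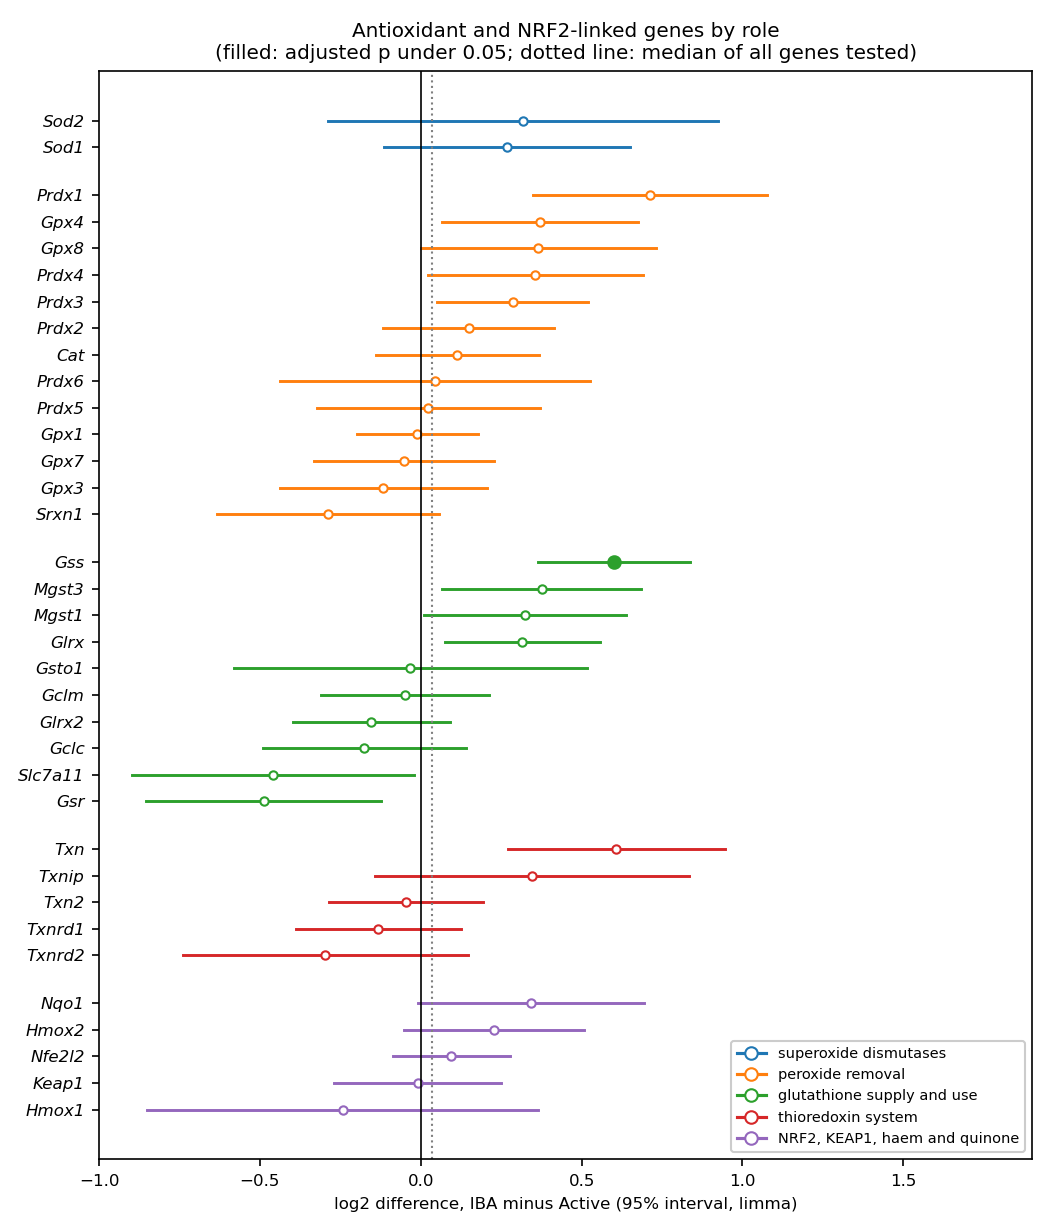
Log2 difference, IBA minus Active, of the 35 members with 95% intervals from limma, grouped by role, with a dotted line at the median of all genes tested, 0.03. The filled point is Gss at 0.60, and the others, open, run from -0.49 for Gsr to 0.71 for Prdx1.

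Both superoxide dismutases had means higher in IBA without passing the test. Sod1, the cytosolic copper and zinc enzyme, was at 266, 308, 192, 215 and 237 CPM in IBA libraries, against 179.7, 255, 244, 207 and 137 CPM in Active libraries. The states overlapped, and the log2 difference was 0.27 (95% interval from -0.12 to 0.65). Sod2, the manganese enzyme of the mitochondrial matrix, was at 699, 1564, 1491, 529 and 711 CPM in IBA libraries, against 697, 947, 630.0, 681 and 719 CPM in Active libraries. IBA replicates 2 and 3 stood far above the other IBA libraries, which lay among or below the Active ones. The medians were 711 CPM in IBA and 697 CPM in Active, while the log2 difference was 0.32 (95% interval from -0.29 to 0.92). That difference was 0.12 without IBA replicate 2 and 0.14 without IBA replicate 3. Sod1 did not share this split, since IBA replicate 3 held its lowest IBA value.

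Peroxide-removing enzymes had the largest member difference, that of Prdx1. Prdx1, the abundant cytosolic peroxiredoxin and an NRF2 target in mammals, was at 679, 899, 558, 785 and 757 CPM in IBA libraries, against 350.5, 518, 567, 474 and 349 CPM in Active libraries. Of the IBA libraries, 4 lay above the highest Active value, and replicate 3 lay within the Active range. The means were 735 ± 127 CPM in IBA and 452 ± 98.5 CPM in Active (SD, n = 5 each), a log2 difference of 0.71 (SE 0.17, 95% interval from 0.35 to 1.08, adjusted p = 0.0644 in limma). DESeq2 called it (adjusted p = 0.00732 in DESeq2), and over the alternatives its adjusted p ran up to 0.228 in limma, edgeR and DESeq2. Gpx4, the glutathione peroxidase that reduces lipid peroxides in membranes and restrains ferroptosis, was at 682, 699.7, 446, 532 and 578 CPM in IBA libraries, against 445, 488, 436, 518 and 369 CPM in Active libraries. Again replicate 3 was the IBA library within the Active range, and the log2 difference was 0.37 (95% interval from 0.07 to 0.67, adjusted p = 0.141 in limma). Prdx3, the mitochondrial peroxiredoxin, was at 237, 219, 224, 228 and 236 CPM in IBA libraries, against 171, 189, 198, 234 and 155 CPM in Active libraries. Its IBA values spread by 7.79 CPM (SD) and its Active values by 29.9 CPM, with a log2 difference of 0.29 (95% interval from 0.05 to 0.52).

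Other peroxiredoxins and peroxidases ranged widely in size of difference. Prdx4, the peroxiredoxin of the endoplasmic reticulum, averaged 37.5 ± 8.96 CPM in IBA and 28.8 ± 3.91 CPM in Active, and IBA replicate 1 held the highest value, 52.7 CPM. Gpx8, another enzyme of that compartment, averaged 116 ± 10.1 CPM in IBA and 92.7 ± 24.5 CPM in Active (SD, n = 5 each). Its lowest Active values were 60.04 CPM in replicate 5 and 75.8 CPM in replicate 4, and its log2 difference of 0.37 was 0.09 without these replicates. Gpx7, which also works in the endoplasmic reticulum, averaged 20.2 ± 2.39 CPM in IBA and 21.0 ± 2.75 CPM in Active, a log2 difference of -0.05. Prdx2, a second cytosolic peroxiredoxin, averaged 565 ± 81.4 CPM in IBA and 508 ± 53.3 CPM in Active, a log2 difference of 0.15. Cat, catalase of peroxisomes, averaged 467 ± 41.9 CPM in IBA and 434 ± 62.7 CPM in Active, a log2 difference of 0.11 (SD, n = 5 each). Red blood cells are rich in both of these enzymes. The 4 measured red cell markers summed to 52.7 to 66.4 CPM in IBA and 49.5 to 80.9 CPM in Active libraries. Bpgm, at a mean of 44.9 CPM over the libraries, made up most of that sum. Hba1, a globin gene, ran from 3.06 to 9.52 CPM in IBA and from 1.78 to 23.6 CPM in Active libraries. The part of red cells in the Prdx2 and Cat values was not tested. Gpx1, the main cytosolic glutathione peroxidase, averaged 238 ± 16.7 CPM in IBA and 239 ± 16.4 CPM in Active (SD, n = 5 each), with a 95% interval of the log2 difference from -0.20 to 0.18. Gpx3, the secreted plasma form, was at 628 to 952 CPM in IBA and 637 to 936 CPM in Active libraries, a log2 difference of -0.12. Prdx5 was at 225 to 410 CPM in IBA and 259 to 358 CPM in Active libraries, and Prdx6 at 117 to 276 CPM in IBA and 153 to 255 CPM in Active libraries. Their log2 differences were 0.02 and 0.04, and both became negative, -0.03 and -0.01, when libraries were scaled to equal totals. Srxn1, sulfiredoxin, which repairs over-oxidised peroxiredoxins, was at 22.8 to 28.5 CPM in IBA and 23.8 to 40.9 CPM in Active libraries, with a log2 difference of -0.29 (95% interval from -0.64 to 0.06). Its highest Active values were in replicates 1 and 5, the libraries with the lowest Prdx1.

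**Figure D2:**
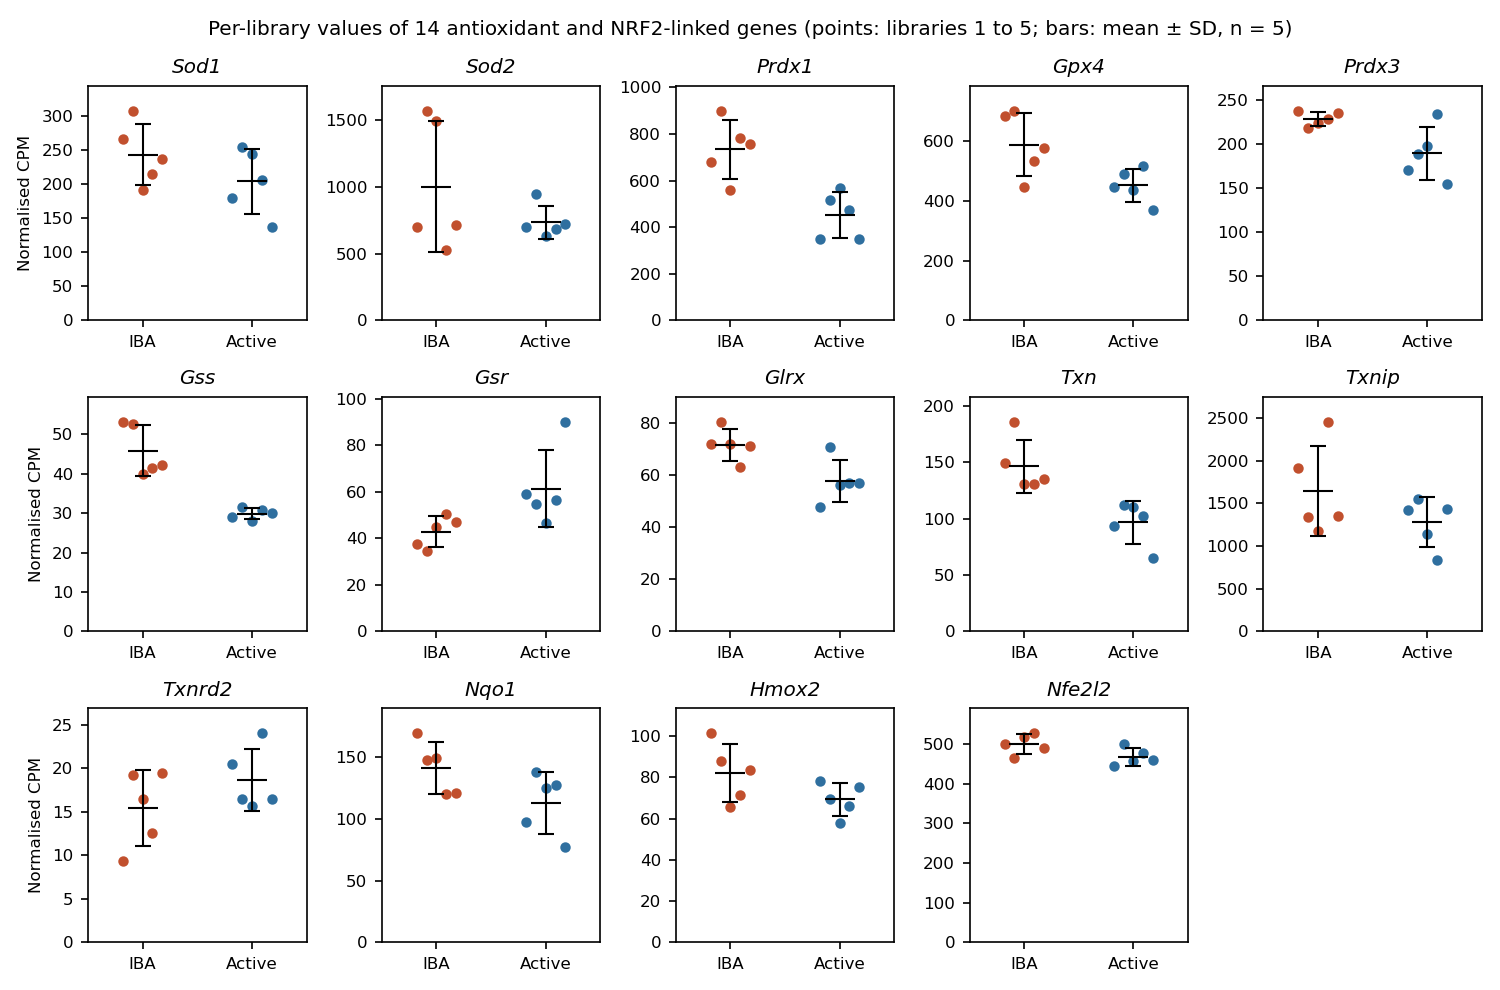
Normalised CPM (vertical axes, from 0) of the members with the smallest p in each role group, with each library as a point and the mean ± SD as bars (n = 5 per state). Gss and Txn show no overlap between IBA and Active, and Sod2 shows IBA replicates 2 and 3 at 1564 and 1491 CPM above the rest.

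Glutathione genes differed in direction along the pathway. Slc7a11 imports the cystine that supplies cysteine, Gclc and Gclm form the rate-limiting ligase, Gss completes glutathione and Gsr reduces its oxidised form. Slc7a11 was at 68.8 to 137 CPM in IBA libraries and 96.2 to 176 CPM in Active libraries, so the states overlapped. It averaged 95.6 ± 25.7 CPM in IBA and 132 ± 34.8 CPM in Active (SD, n = 5 each), a log2 difference of -0.46 (95% interval from -0.90 to -0.02, adjusted p = 0.193 in limma). Gclc averaged 92.4 ± 7.66 CPM in IBA and 106 ± 24.2 CPM in Active, and Gclm averaged 19.6 ± 1.71 CPM in IBA and 20.3 ± 2.53 CPM in Active (SD, n = 5 each). Gclc and Gclm had log2 differences of -0.18 and -0.05, with 95% intervals of -0.49 to 0.14 and -0.31 to 0.21. Gss, the next step, was thus the only synthesis gene with a positive difference. Gsr, glutathione reductase, was at 37.8, 34.4, 45.04, 50.5 and 47.1 CPM in IBA libraries, against 59.1, 54.8, 46.4, 56.7 and 90.1 CPM in Active libraries. Of the IBA libraries, 3 lay below the lowest Active value, and Active replicate 5 stood high. The log2 difference of Gsr was -0.49 (SE 0.17, adjusted p = 0.117 in limma and 0.0403 in DESeq2), and -0.34 without Active replicate 5. In the RefSeq annotation of assembly mIctTri1.hap1 a pseudogene overlaps Gsr, so reads may be shared.

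Of the 5 glutaredoxins and glutathione transferases, 3 had a positive difference and none passed the test. Glrx, cytosolic glutaredoxin, which removes glutathione from proteins, was at 72.0, 80.3, 71.9, 63.0 and 71.0 CPM in IBA libraries, against 47.8, 70.7, 56.1, 57.0 and 57.0 CPM in Active libraries. Active replicate 2 was the Active library that reached the IBA range, and the log2 difference was 0.32 (95% interval from 0.07 to 0.56, adjusted p = 0.121 in limma). Glrx2, the mitochondrial glutaredoxin, averaged 12.8 ± 1.14 CPM in IBA and 14.3 ± 0.87 CPM in Active (SD, n = 5 each), a log2 difference of -0.15. The membrane-bound transferases Mgst3 and Mgst1 had log2 differences of 0.38 and 0.32 (adjusted p = 0.141 and 0.199 in limma). Mgst1 averaged 579 ± 76.1 CPM in IBA and 466 ± 93.3 CPM in Active (SD, n = 5 each), and Active replicates 1 and 2 lay within the IBA range. Mgst3 was highest in IBA replicates 1 and 2, at 340.4 and 347 CPM, and the other IBA libraries lay at 217 to 267 CPM beside 184 to 226 CPM in Active. Gsto1, an omega-class transferase, was at 114 to 149 CPM in IBA libraries, and in Active libraries at 304 CPM in replicate 4 and at 101 to 126 CPM in the others. That Active library also had the highest choroid plexus markers: the 13 measured markers summed to 22475 CPM there, and to 1037 CPM in the lowest Active library. Whether choroid plexus tissue carried the Gsto1 value was not tested. The log2 difference of Gsto1 was -0.03, and 0.25 without Active replicate 4.

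Txn, the cytosolic thioredoxin, was the other member without overlap between states. It was at 149, 186, 131, 130.5 and 135 CPM in IBA libraries, against 93.2, 113, 111, 103 and 65.1 CPM in Active libraries. IBA replicate 2 was the highest and Active replicate 5 the lowest. The means were 146 ± 23.3 CPM in IBA and 96.8 ± 19.3 CPM in Active (SD, n = 5 each), with a log2 difference of 0.61 (SE 0.16, adjusted p = 0.0728 in limma and 0.0174 in DESeq2). Without Active replicate 5 the log2 difference was 0.47. Its mitochondrial relative Txn2 was at 107 to 136 CPM in IBA and 107 to 144 CPM in Active libraries and had a log2 difference of -0.05 (95% interval from -0.29 to 0.19). Reads of Txn, Prdx1 and Gpx4 may also be split with near-identical copies, since how the authors counted such reads was not given.

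Both thioredoxin reductases had negative differences that did not pass the test. Txnrd1, the cytosolic reductase and an NRF2 target, averaged 138 ± 20.9 CPM in IBA and 151 ± 15.0 CPM in Active (SD, n = 5 each), a log2 difference of -0.13 (95% interval from -0.39 to 0.13). Txnrd2, the mitochondrial reductase, was at 9.35, 19.2, 16.5, 12.6 and 19.5 CPM in IBA libraries, against 20.5, 16.5, 15.7, 24.1 and 16.5 CPM in Active libraries. The states overlapped, and the log2 difference was -0.30 (95% interval from -0.74 to 0.15). Eid3 overlaps Txnrd1 in mIctTri1.hap1, so the Txnrd1 counts are less certain. Txnip, which binds thioredoxin and lowers its activity, was at 1914, 1339.7, 1175, 2449 and 1349 CPM in IBA libraries, against 1421, 1553, 1137, 832 and 1437 CPM in Active libraries. Replicates 1 and 4 gave the high IBA values, and the medians, 1349 CPM in IBA and 1421 CPM in Active, ran against the log2 difference of 0.35 (95% interval from -0.14 to 0.83).

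NRF2 itself and its inhibitor had small differences whose intervals include 0. Nfe2l2 was at 499, 464, 517, 527 and 488 CPM in IBA libraries, against 443, 501, 457, 477 and 459 CPM in Active libraries. The spread within each state was small, 24.7 CPM in IBA and 22.1 CPM in Active (SD, n = 5 each), and the log2 difference was 0.09 with a 95% interval of -0.09 to 0.28. Keap1 averaged 121 ± 7.39 CPM in IBA and 123 ± 21.8 CPM in Active, a log2 difference of -0.01 (95% interval from -0.27 to 0.25). Transcript levels do not show NRF2 activity, which is set mainly by how fast the protein is degraded.

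Nqo1, a quinone reductase often read as a marker of NRF2 activity, was at 169, 148, 149.6, 119.8 and 121 CPM in IBA libraries, against 97.2, 138, 125, 127 and 77.1 CPM in Active libraries. IBA replicates 1 to 3 lay above every Active library, and replicates 4 and 5 within the Active range. The log2 difference was 0.34 (95% interval from -0.01 to 0.69, adjusted p = 0.217 in limma), and 0.21 without Active replicate 5. Hmox1, the inducible haem oxygenase, was at 36.7 to 118 CPM in IBA and 54.3 to 108 CPM in Active libraries, the widest interval of any member, with a log2 difference of -0.24 (95% interval from -0.85 to 0.36). IBA replicate 5 held the highest of all values and replicates 3 and 4 the lowest. Hmox2, the constitutive haem oxygenase of neurons, was at 101, 87.8, 65.6, 71.7 and 83.4 CPM in IBA libraries, against 78.2, 69.4, 58.1, 66.2 and 75.3 CPM in Active libraries. IBA replicates 1, 2 and 5 lay above every Active library, with a log2 difference of 0.23 (95% interval from -0.05 to 0.51).

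A list of 7 members long known as NRF2 targets was drawn up with earlier results known. It is not complete and leaves out other targets among the members, such as Prdx1 at 0.71. Within these 7 (Nqo1, Gclm, Hmox1, Txnrd1, Srxn1, Slc7a11 and Gclc), Nqo1 alone had a positive log2 difference. The other 6 were negative, and the median was -0.18, whereas 54.1% of all genes tested and 11 of 18 genes in the related list of other NRF2 targets were positive. In limma 0 of the 7 were called, and 1, Slc7a11, had an unadjusted p under 0.05. edgeR and DESeq2 called none of the 7 either.

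By role, the median log2 difference was 0.29 over the 2 superoxide dismutases and 0.11 over the 13 peroxide-removing genes, of which 9 were positive. It was -0.04 over the 10 genes of glutathione supply and use, with 4 positive and 6 negative, and -0.05 over the 5 thioredoxin genes, with 2 positive. It was 0.09 over the 5 genes of NRF2, KEAP1, haem and quinone, with 3 positive. At an unadjusted p under 0.05 in limma there were 0 superoxide, 5 peroxide, 6 glutathione, 1 thioredoxin and 0 NRF2-group genes. The 5 peroxide genes, of 13, and the thioredoxin gene, of 5, were all higher. Of the 6 glutathione genes, of 10, 4 were higher and 2 lower. Over all genes tested in limma, 12.7% were higher and 11.1% lower. The peroxide counts depended on the tool, with 3 higher and 1 lower in edgeR and in DESeq2. The glutathione counts were 3 higher and 2 lower in edgeR, and 4 and 2 in DESeq2. Differences between role groups were not tested. The glutathione median was 0.11 without Active replicate 4, 0.08 without Active replicates 4 and 5 and 0.02 with sample weights. The thioredoxin median was 0.00 to 0.01 without Active replicate 2 or 5, so neither sign was firm.

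**Figure D3:**
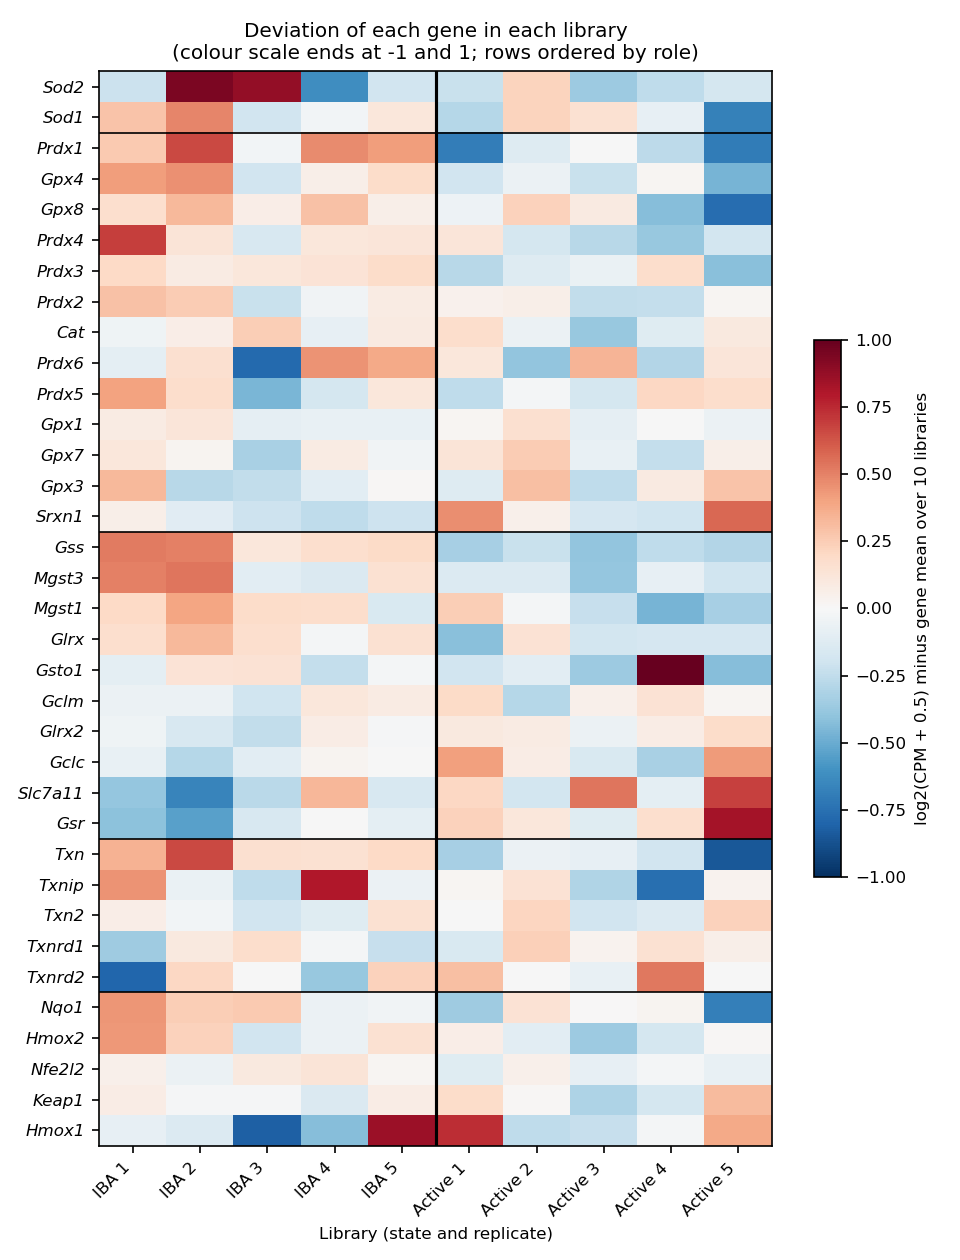
Deviation of log2(CPM + 0.5) from each gene's mean over the 10 libraries, with members in rows by role and IBA libraries left of Active libraries. Prdx1, Gss and Txn are mostly red in IBA and blue in Active, while Sod2 and Hmox1 vary within a state.

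Within a state the members did not all move together, but some libraries were extreme for a larger share of members than of all genes. The median deviation of the members from their means over the 10 libraries was lowest in replicate 3 of each state. It ran from -0.11 to 0.13 over the IBA libraries and from -0.17 to 0.02 over the Active libraries. IBA replicate 3 held the lowest IBA value of 16 of the 35 members, beside 23.4% of all genes tested. IBA replicates 1 and 2 each held the highest IBA value of 10 members, beside 20.2% and 19.1% of all genes. Among Active libraries, replicate 2 held the highest value of 14 members and replicate 3 the lowest of 13, beside 22.9% and 23.2% of all genes. Active replicate 5 was the highest Active library for 7 members and the lowest for 8. Its lowest values were those of Txn, Prdx1, Nqo1, Sod1, Gpx4, Gpx8, Prdx3 and Gsto1, and its highest were those of Gsr, Slc7a11, Srxn1, Gclc, Keap1, Glrx2 and Txn2. Nfe2l2 was steady in both states, with a coefficient of variation of 4.96% in IBA and 4.73% in Active. The least steady were Sod2 in IBA, at 48.9%, and Gsto1 in Active, at 57.2%.

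Genes around the members were read from 8 related lists with 107 measured genes. In limma 0 of the 107 were called. At an unadjusted p under 0.05 in limma 16 were higher (15.0%) and 13 lower (12.1%), near the 12.7% and 11.1% of all genes. edgeR called 0 as well, with 15 higher and 15 lower at an unadjusted p under 0.05. DESeq2 called 12 higher (11.2%) and 7 lower (6.54%), beside 3.88% and 6.06% of all genes. Partners of NRF2 had a median log2 difference of -0.005 over 13 genes. Mafg, a small MAF protein that binds DNA together with NRF2, averaged 38.9 ± 6.603 CPM in IBA and 57.3 ± 7.31 CPM in Active (SD, n = 5 each), without overlap and with a log2 difference of -0.56 (adjusted p = 0.0728 in limma). Nfe2l3, an NRF2 relative, averaged 4.73 ± 1.09 CPM in IBA and 2.53 ± 0.41 CPM in Active, a log2 difference of 0.77 (adjusted p = 0.0712 in limma). Other NRF2 targets were mixed, with a median of 0.04 over 18 genes and 3 higher and 3 lower at an unadjusted p under 0.05 in limma. Osgin1, a stress-induced NRF2 target, did not overlap between states, at 1.79 to 3.31 CPM in IBA and 3.39 to 5.14 CPM in Active libraries, a log2 difference of -0.64 (adjusted p = 0.0907 in limma). Taldo1, a pentose phosphate enzyme, had a log2 difference of 0.44 (adjusted p = 0.1004 in limma).

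Further glutathione genes had a median log2 difference of 0.09 over 16 genes. Oplah, which recycles oxoproline to glutamate in glutathione turnover, was at 73.9, 78.6, 75.7, 65.4 and 84.9 CPM in IBA libraries, against 105, 132, 93.6, 163 and 151 CPM in Active libraries. The states did not overlap, and the log2 difference was -0.74 (SE 0.15, adjusted p = 0.0567 in limma). Of 22 alternatives, 4 called it, among them DESeq2, and the adjusted p over all of them in limma, edgeR and DESeq2 ran from 0.000309 to 0.196. Gstz1, a zeta-class transferase, had a log2 difference of 0.38 (adjusted p = 0.0875 in limma). In the list of sestrins, DJ-1 and methionine repair the median was 0.17 over 13 genes. Txndc17, a small thioredoxin-like protein, averaged 133 ± 24.5 CPM in IBA and 82.8 ± 14.1 CPM in Active, and Msrb1, a selenoprotein that repairs oxidised methionine, averaged 44.98 ± 5.91 CPM in IBA and 32.6 ± 2.42 CPM in Active (SD, n = 5 each). Neither overlapped between states, with log2 differences of 0.68 and 0.45 (adjusted p = 0.0596 and 0.0644 in limma). The related enzymes Msrb3 and Msrb2, named after their values were seen, had log2 differences of -0.50 and -0.66 (adjusted p = 0.0907 and 0.109 in limma), and DESeq2 called both lower.

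Selenoprotein genes had a median log2 difference of 0.04 over 15 genes, with 4 higher and 0 lower at an unadjusted p under 0.05 in limma, 3 and 1 in edgeR and 3 and 2 in DESeq2. Selenok and Selenof, selenoproteins of the endoplasmic reticulum, had log2 differences of 0.55 and 0.33, and neither overlapped between states (adjusted p = 0.0644 and 0.104 in limma). Copper and metallothionein genes had a median of -0.14 over 6 genes. Atox1, the copper chaperone, averaged 77.6 ± 10.3 CPM in IBA and 55.5 ± 4.55 CPM in Active (adjusted p = 0.0627 in limma), and Mt3, the brain metallothionein, 223 ± 80.4 CPM in IBA and 283 ± 101 CPM in Active (SD, n = 5 each). Genes that produce oxidants had a median of 0.05 over 12 genes. Maoa, a monoamine oxidase that releases hydrogen peroxide, had a log2 difference of 0.53 without overlap (adjusted p = 0.0772 in limma). Xdh, xanthine dehydrogenase, was at 0.26 to 5.39 CPM in IBA and 2.80 to 16.2 CPM in Active libraries, a log2 difference of -1.85 (adjusted p = 0.0889 in limma). Iron and ferroptosis genes had a median of 0.05 over 14 genes, with Tfrc, the transferrin receptor, at 0.62 and Acsl4, which loads membranes with oxidisable lipids, at 0.23. In that list 1 gene was higher and 2 were lower at an unadjusted p under 0.05 in limma. The lower ones, named after their values were seen, were Alox15, a lipoxygenase, at -0.68 and without overlap, and Hspb1, a small heat shock protein, at -0.71. Both averaged under 2 CPM over the libraries.

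**Figure D4:**
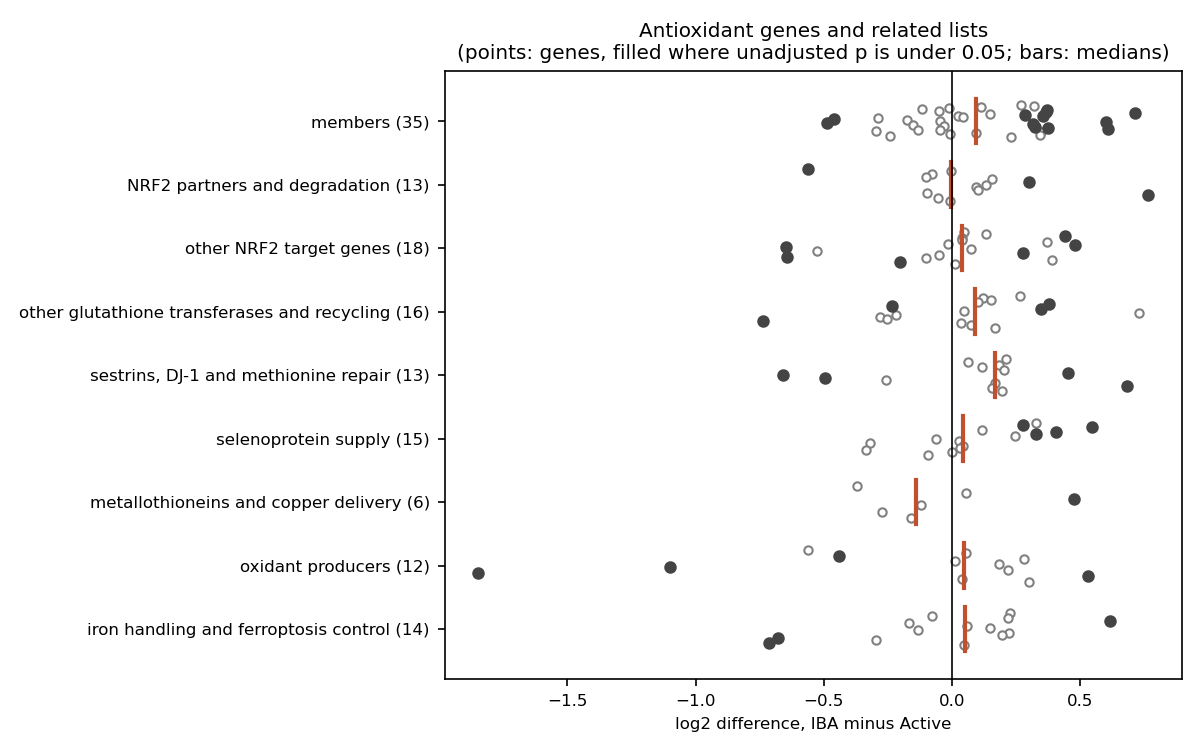
Log2 difference, IBA minus Active, of the members and of each measured gene in 8 related lists, with bars at the medians and filled points where the unadjusted p in limma was under 0.05. The medians lie between -0.14 and 0.17, and the gene farthest from 0 is Xdh at -1.85.

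Markers of cell types moved with state in some lists, and their part in the results was not tested. The 9 measured microglia markers summed to 289.8 to 337 CPM in IBA and 209.7 to 272 CPM in Active libraries, with no overlap, and 6 of 9 had a positive log2 difference. P2ry12 and Tyrobp were called higher in limma. Tmem119 and C1qc of that list stayed under a mean of 1 CPM, and no gene of the list with a row was at exactly 0. The 3 measured perivascular macrophage markers summed to 18.8 to 23.0 CPM in IBA and 30.8 to 61.2 CPM in Active libraries, again with no overlap, and all 3 were negative. Lyve1 of that list was called lower in limma (adjusted p = 0.0347). Of the 9 measured pericyte and smooth muscle markers, 7 were negative, 4 of them at an unadjusted p under 0.05 in limma, and they summed to 161 to 260.2 CPM in IBA and 193 to 286 CPM in Active libraries. Summed neuron markers ran from 3169 to 4712 CPM in IBA and from 2814 to 4146 CPM in Active libraries. Among the 10 measured, 8 were positive, 2 of them at an unadjusted p under 0.05 in limma. Summed astrocyte markers ran from 13183 to 17956 CPM in IBA and from 9749 to 24539 CPM in Active libraries. Among the 10 measured, 5 were positive and 5 negative, and 2 of the negative ones had an unadjusted p under 0.05 in limma.

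An FDR under 0.05 was held by 0 of the 35 members and by 12 genes in all in the authors' deposited table. The authors' deposited table gave 6 members a p under 0.05, and the share of all genes at that level in it was not counted here. Gss had an FDR of 0.136 in the authors' deposited table, the lowest of the members. All 35 members had the same direction in the authors' deposited table once its sign, coded Active minus IBA, was turned.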

How the data were processed

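Reads had been handled with STAR 2.7.7a, Trimmomatic 0.39, Subread 2.0.1 (featureCounts), R 4.2.1 and edgeR 3.38.4, per the submitters' processing notes. No source used here gives the genome build, annotation or strand setting. The deposited values are a signal, normalised CPM of each library, per the file headers. For each gene the authors deposited a log2 fold change, an average log2 CPM, an F score and a p-value with FDR.

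All CPM values were whole multiples of 1 read within 0.01 read (100% of values), which gave the read totals. Of 25964 genes, the 15445 averaging 1 CPM or more were fitted with limma 3.58.1 in R 4.3.3 on log2(CPM + 0.5), with intensity trend, no covariate, two-sided, Benjamini-Hochberg adjusted over all 15445, threshold 0.05. edgeR 4.0.16 and DESeq2 1.42.0 ran on the recovered reads as alternatives. The 95% intervals come from limma. Libraries of a state differed by more than sampling noise. The fit was tested on simulated data.

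Members and lists were chosen with earlier results of these data known. Per-library values are given for called members and the 3 with the smallest p per role group, and means or ranges for others. In each related list the 2 genes with the smallest p and a mean of at least 2 CPM are named. Oplah's values per library, P2ry12, Tyrobp, Lyve1 and the subsets of the closing observations were chosen after values were seen. RefSeq gene IDs (assembly mIctTri1.hap1) matched 2 related and 4 marker genes listed by ID only.

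Replicate numbers were not taken as pairs, since only some pairs deviated together.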

Additional observations from a re-analysis of the deposited data

Results flagged for a closer look

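Of 70 sets of 5 values (35 members in each state), 3 held a library far from the other 4, with a gap to its nearest neighbour of over 0.71 of the whole range. Chance gives about 1 in 20 such sets, or 3.5 here. Gsto1 reached 304 CPM in Active replicate 4, against 101 to 126 CPM in the remaining Active libraries. Prdx4 reached 52.7 CPM in IBA replicate 1, against 28.9 to 35.5 CPM in the remaining IBA libraries. Sod2 reached 947 CPM in Active replicate 2, while the others of that state lay between 630.0 and 719 CPM.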

How the results depend on the processing

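Over 22 alternatives, 28 of the 35 members kept the sign of their log2 difference. The count of all genes called was 62, and 57 in edgeR, 1527 in DESeq2, 6 with no filter on low values, 121 with sample weights and 0 without Active replicates 4 and 5 (limma, with 2191 at an unadjusted p under 0.05). Members called numbered 1, and 4 in DESeq2 and 0 with no filter, with no intensity trend or without Active replicates 4 and 5. Members lower at an unadjusted p under 0.05 numbered 2, and 1 with no intensity trend and 0 without Active replicates 4 and 5. The glutathione median of -0.04 was -0.14 in edgeR and in DESeq2, and 0.077 without Active replicates 4 and 5. The sign turned for Prdx5 (-0.035) and Prdx6 (-0.015) at equal totals, for Gsto1 (0.061) and Keap1 (0.0013) with sample weights, and for both (0.20 and 0.034) without Active replicates 4 and 5. The cause was not tested.

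Replicate numbers were shared by the states, but same-numbered libraries correlated at 0.12, 0.10, -0.17, -0.01 and 0.20 in their deviations, and 2 of 5 numbers correlated best with themselves, so the numbers were not taken as pairs. With a replicate block 231 genes were called, and Gss was again the member called (adjusted p = 0.0448 in limma). Of the named related genes, Txndc17 was called with the block (adjusted p = 0.0432 in limma).

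Leaving out each library in turn, all genes called numbered 4 to 245, with 0 to 1 members called, 5 to 10 members higher and 1 to 3 lower. Medians ran from 0.07 to 0.14 over all members, 0.15 to 0.41 for superoxide, 0.09 to 0.22 for peroxide, -0.094 to 0.11 for glutathione, -0.10 to 0.01 for thioredoxin and 0.07 to 0.12 for the NRF2 group. Signs turned within -0.043 to 0.028 for Gpx1, -0.12 to 0.023 for Gpx7, -0.074 to 0.14 for Prdx5, -0.064 to 0.24 for Prdx6, -0.14 to 0.25 for Gsto1, -0.099 to 0.0050 for Txn2 and -0.089 to 0.068 for Keap1. With 5 libraries a state, the half-width of the 95% interval was 1.13-fold for Nfe2l2 to 1.52-fold for Hmox1, which limits the differences that could be detected.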

Other observations

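Some properties that the choice of members did not use were looked at after the values were seen, so they are descriptions without a test. A set of 6 members that work in mitochondria (Sod2, Prdx3, Prdx5, Txn2, Txnrd2 and Glrx2) had a median log2 difference of -0.01, with 3 positive and 3 negative. It is not a full list of members with a mitochondrial form. The 5 selenoproteins among the members (Gpx1, Gpx3, Gpx4, Txnrd1 and Txnrd2) had a median of -0.12, and Gpx4 was the positive one. A set of 4 genes for NADPH-dependent reductases or sulfiredoxin (Gsr, Txnrd1, Txnrd2 and Srxn1) was negative throughout, from -0.49 to -0.13, with a median of -0.29. The quinone reductase Nqo1, at 0.34, was not put in that set. The set also leaves out the thioredoxins and glutaredoxins, which differed in sign. Txn and Glrx were at 0.61 and 0.32, and Txn2 and Glrx2 were at -0.05 and -0.15. Over all genes tested 8355 of 15445 were positive.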
